A study of Glycine max with 12 samples.

Results

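The root expression of 4 soybean genes that control nodulation, the Nod factor receptors and the autoregulation kinase, is described here. They were chosen by their known roles, with earlier results of these data known, from the 43517 genes in the count table. The NFR1 copies are Glyma.02G270800.Wm82.a2.v1 (NFR1 alpha, chromosome 2) and Glyma.14G046200.Wm82.a2.v1 (NFR1 beta, the duplicate copy of NFR1 alpha, chromosome 14). The others are Glyma.11G063100.Wm82.a2.v1 (NFR5 alpha, chromosome 11) and Glyma.12G040000.Wm82.a2.v1 (NARK, chromosome 12). The chromosome is the number in the identifier, the ending .Wm82.a2.v1 is left off for other genes, and the names come from the gene list chosen for this description, since the authors' tables pair no identifier with a name. For the same reason the root label could not be checked against marker genes, and other genes of the pathway, the second NFR5 copy included, are not described.

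Soybean, like other legumes, forms root nodules in which rhizobia fix nitrogen. The plant recognises Nod factors, the lipo-chitooligosaccharide signals of rhizobia, at the root through LysM receptor kinases of the NFR1 and NFR5 types, which act together: NFR1 carries an active kinase, and NFR5 has a kinase domain without activity of its own. Nodule number is then held down by autoregulation of nodulation, in which CLE peptides made in the root are perceived by the leucine-rich repeat receptor kinase NARK, a relative of CLAVATA1. NARK is best known for acting in the shoot, and plants that lack it form far more nodules than normal.

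The 12 RNA-seq libraries came from roots of the materials labelled W and OX3, which the tables head WT and OX. Plants of each material were supplied with MnSO4 at 5 µM (control) or at 50 µM (the manganese treatment), with 3 libraries in each of the 4 groups. What distinguishes OX3 from W, how old the plants were, and whether they met rhizobia was not stated in the labels. Total counts ranged from 15175866 to 19408318 per library. The labels do not say whether the libraries of a group came from separate plants, so p-values reflect only how these libraries vary, and part of that may be technical. Levels and differences are given on separate scales: FPKM, the authors' level per kilobase of gene length, for levels within and between genes, and log2 fold changes from edgeR's quasi-likelihood test on the counts, adjusted by Benjamini-Hochberg over the 31841 genes tested, with a threshold of 0.05. In these whole-root samples, fewer cells expressing a gene and less RNA per cell cannot be told apart.

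Libraries of the same group did not always lie together. On the first principal component, which held 33.7% of the variance, W replicate 2 at 5 µM lay at -107.2, beside the OX3 controls at -107.1 to -53.0 and away from the other W controls at -1.23 and 35.3. Among OX3 libraries at 50 µM, replicate 4 lay at -16.8 and the others at 60.7 and 35.6. On the second component, with 18.9% of the variance, W replicates 3 and 4 at 5 µM lay lowest of all, at -136.8 and -53.0. There W replicate 2 at 5 µM lay at 5.11, so which of the W controls stood apart depended on the component. W replicate 2 at 5 µM and OX3 replicate 4 at 50 µM were also at an extreme of their group in the Nod factor receptors. The values that leaving either out moves most are therefore also given without it.

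NFR1 alpha, NFR5 alpha and NARK had counts in every library, and NFR1 beta in 3. NARK was the most abundant, with a mean of 12.4 FPKM over the 12 libraries, above 78.9% of the 40214 genes in the FPKM table. NFR5 alpha averaged 3.80 FPKM, above 56.9% of genes, and NFR1 alpha 2.05 FPKM, above 46% of genes. NFR1 beta averaged 0.00926 FPKM, from 4 counts in all. Within single libraries NARK was the highest of the 4 in 11 of 12, the exception being W replicate 3 at 50 µM, where NFR1 alpha was higher. NFR5 alpha exceeded NFR1 alpha in 9 of 12 libraries, among them all 6 controls.

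**Figure D1:**
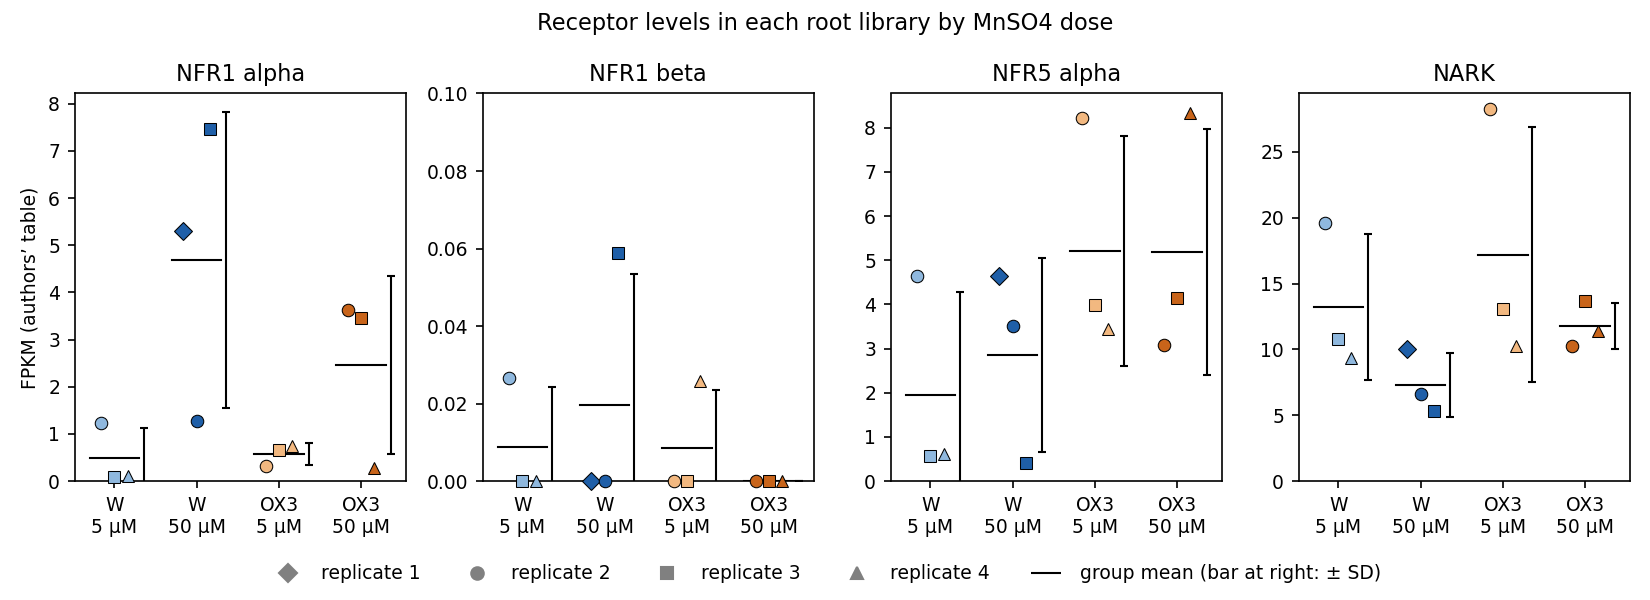
FPKM (y axis, a separate linear scale in each panel) of the 4 genes in each library, by material and MnSO4 dose (x axis). Symbols mark replicate numbers, horizontal lines group means and bars at the right ± SD (n = 3, cut off at 0). NFR1 alpha is above 1.2 FPKM in 5 of the 6 libraries at 50 µM and in 1 of the 6 at 5 µM, and NFR1 beta stays under 0.06 FPKM throughout.

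No comparison of these genes passed the threshold in edgeR's test. Of 21 tests, 3 genes in each of 7 comparisons, 0 had an adjusted p under 0.05 and 5 had an unadjusted p under 0.05. Those 5 were NFR1 alpha with manganese in W, in OX3 and over both materials, and NARK with manganese in W and over both, comparisons in which 18.6%, 15% and 24.9% of all tested genes in W, in OX3 and over both had such a p. The comparisons share libraries and are not independent. DESeq2 called 2, both of them NFR1 alpha with manganese, in W, where it called 5.41% of the genes it gave an adjusted p, and over both materials, where it called 13%. In those comparisons edgeR called 0.00314% and 2.32% of genes. Limma-trend on log2 FPKM passed the threshold in 0 of the 21 tests. Over all genes it called 2 in W with 1 FPKM added and 1 with 0.1 FPKM added. Over both materials it called 864 and 995. NFR1 beta fell below the filter on low counts and was not tested.

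NFR1 alpha, the NFR1 copy on which soybean nodulation mainly depends, was higher on average at 50 µM MnSO4 than at 5 µM in both materials, but by amounts that varied widely between libraries. In W it stood at 1.24, 0.0947 and 0.116 FPKM in replicates 2, 3 and 4 at 5 µM. At 50 µM it stood at 5.31, 1.28 and 7.46 FPKM in W replicates 1, 2 and 3. The groups did not overlap, though the highest control and the lowest treated library, both numbered replicate 2, stood at 1.24 and 1.28 FPKM. In CPM scaled by TMM the same libraries stood at 2.64 and 3.70, and the groups did not overlap either. On that scale 11.3% of all tested genes were likewise higher at 50 µM in W without overlap.

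The group means of NFR1 alpha in W were 0.483 ± 0.653 FPKM (SD, n = 3) at 5 µM and 4.68 ± 3.14 FPKM (SD, n = 3) at 50 µM. The log2 fold change was 3.56 (SE 1.05; edgeR adjusted p = 0.166). It was larger than that of all but 0.565% of tested genes. The 2 lowest controls rested on 4 and 5 counts, against 51 to 321 counts at 50 µM. In this comparison 0.00314% of all genes passed the threshold and 18.6% had an unadjusted p under 0.05. DESeq2 called NFR1 alpha here, at an adjusted p of 0.0112. Without W replicate 2 at 5 µM the log2 fold change was 5.43 (edgeR adjusted p = 0.287). It was 3.14 without W replicate 3 at 5 µM (edgeR adjusted p = 0.34). The lowest value without any one library was 2.98, without W replicate 3 at 50 µM (edgeR adjusted p = 0.418).

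In OX3, NFR1 alpha stood at 0.318, 0.652 and 0.753 FPKM in replicates 2, 3 and 4 at 5 µM. The OX3 libraries at 50 µM gave 3.63, 3.46 and 0.283 FPKM in the same order of replicates. Replicates 2 and 3 at 50 µM were above every control, whereas replicate 4 was below every control in FPKM. In CPM scaled by TMM it stood at 0.726, above the lowest control, replicate 2, at 0.662. The means were 0.575 ± 0.228 FPKM (SD, n = 3) and 2.46 ± 1.89 FPKM (SD, n = 3), and the log2 fold change was 2.24 (SE 1.00; edgeR adjusted p = 0.322). Without OX3 replicate 4 at 50 µM it was 2.77 (edgeR adjusted p = 0.2). Of all genes, 0% passed the threshold in OX3 and 15% had an unadjusted p under 0.05.

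Over both materials, the log2 fold change of NFR1 alpha with manganese was 2.90 (SE 0.72). Its adjusted p of 0.0556 in edgeR's test lay just outside the threshold, which 2.32% of all genes passed, and 24.9% of genes had an unadjusted p under 0.05. The median log2 fold change of all tested genes was -0.042. The call on NFR1 alpha depended on 1 library: without OX3 replicate 4 at 50 µM the log2 fold change was 3.16 (edgeR adjusted p = 0.0263). Calls over all genes also rose in that fit, to 1823 from 740 with every library kept. Over the fits without any one library they ran from 0 to 1927. Without W replicate 2 at 5 µM the log2 fold change of NFR1 alpha was 3.83 (edgeR adjusted p = 0.0764). With both of these libraries left out, a setting chosen after the data were seen, it was 4.10 (edgeR adjusted p = 0.0228). Without W replicate 3 at 5 µM alone it was 2.69 (edgeR adjusted p = 0.118).

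The manganese response of NFR1 alpha in OX3 less the response in W came to -1.31 (log2; SE 1.38; adjusted p = 0.853 in edgeR's interaction test), and a difference between the materials was not detectable. Leaving out any one library, that difference lay between -3.19, without W replicate 2 at 5 µM, and -0.74, without W replicate 3 at 50 µM. In that test 0.00314% of all genes passed. The log2 fold change of NFR1 alpha, OX3 against W, was 0.25 (SE 1.02) at 5 µM and -1.06 (SE 0.94) at 50 µM. Its adjusted p-values in edgeR's test were 0.935 and 0.737. The value at 5 µM was 2.11 without W replicate 2 and -0.17 without W replicate 3, so its sign depended on the library left out. At 50 µM it lay between -1.56, without OX3 replicate 2, and -0.48, without W replicate 3. Averaged over both doses the log2 fold change was -0.41 (SE 0.69), and 0.51 without W replicate 2 at 5 µM. From highest to lowest mean, the groups ran W at 50 µM, OX3 at 50 µM, OX3 at 5 µM and W at 5 µM, and each neighbouring pair overlapped.

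**Figure D2:**
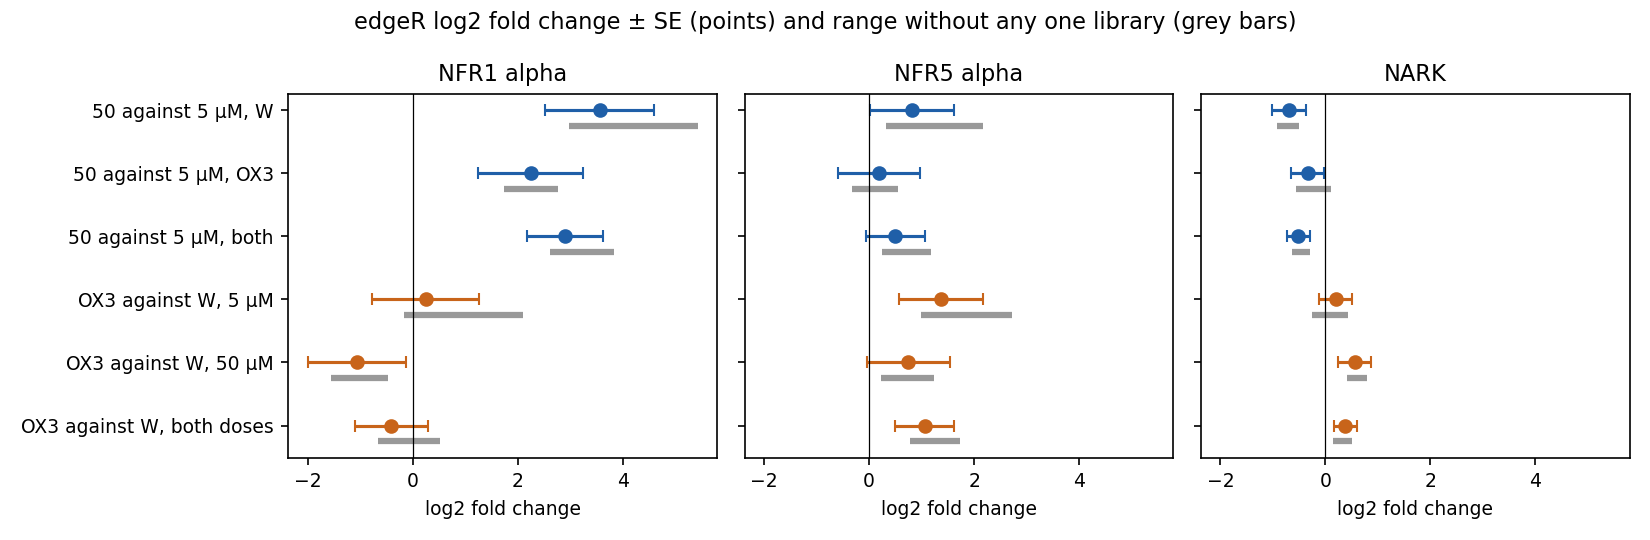
Log2 fold changes (x axis) of NFR1 alpha, NFR5 alpha and NARK in 6 comparisons (rows), from edgeR, as points with ± SE; grey bars span the values obtained without any one library of the comparison. NFR1 alpha stays above 0 in the 3 manganese comparisons whichever library is left out, and the ranges of NARK in OX3 and of NFR5 alpha in OX3 cross 0.

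NFR1 beta, the second copy, was close to absent from these roots in every group. It had 1 count in W replicate 2 and 1 in OX3 replicate 4 at 5 µM, 2 counts in W replicate 3 at 50 µM, and 0 counts in the other 9 libraries. Over all libraries 1077 counts fell on NFR1 alpha and 4 on NFR1 beta, so that NFR1 alpha made up 99.6% of the counts of both copies (exact binomial 95% interval 99.1% to 99.9%). This interval, and those that follow, cover counting error only. Corrected for the lengths of 2590 and 2046 bp used in the authors' FPKM, NFR1 alpha was 212.7 times as abundant as NFR1 beta, with an interval of 82.8 to 782.

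The balance between the copies was one-sided in every group. Pooled over a group, the ratio per length of NFR1 alpha to NFR1 beta was 53.7 (interval 9.32 to 2153) in W at 5 µM and 244 (67.3 to 2020) in W at 50 µM. It was 67.1 (11.7 to 2683) in OX3 at 5 µM. In OX3 at 50 µM NFR1 beta had 0 counts, and NFR1 alpha was at least 80.6-fold higher with 3 counts over the group as the floor. The intervals of the ratio overlap, but overlap is not a test, and they leave out the spread between the pooled libraries. With so few counts of NFR1 beta, neither a shift in balance nor a change of NFR1 beta itself could be judged at this depth. The sources used here do not say how reads matching both copies were counted, and a division of such reads between the copies would not show in the counts.

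Because NFR1 beta was at 0 in 9 libraries, the log2 ratio of the copies could be formed only with 1 FPKM added to each, and it then follows NFR1 alpha. On that scale the ratio was higher at 50 than at 5 µM by 1.38 over both materials, with the 6 treated and 6 control libraries overlapping. The exact two-sided permutation p was 0.03, and 0.3 after Benjamini-Hochberg adjustment over 12 such tests.

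NFR5 alpha, the partner of NFR1 in Nod factor perception, overlapped between the doses in both materials. In W it stood at 4.64, 0.579 and 0.624 FPKM in replicates 2, 3 and 4 at 5 µM. At 50 µM it stood at 4.65, 3.50 and 0.406 FPKM in W replicates 1, 2 and 3. Both doses of W thus held libraries above 3 FPKM and libraries under 1 FPKM, and the ranges overlapped.

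In OX3, NFR5 alpha stood at 8.21, 3.99 and 3.44 FPKM in replicates 2, 3 and 4 at 5 µM. The same replicates at 50 µM gave 3.07, 4.15 and 8.34 FPKM. No OX3 library fell to the low level of the 3 W libraries, W replicates 3 and 4 at 5 µM and W replicate 3 at 50 µM, which had 21, 23 and 15 counts against 114 to 354 in the other 9 libraries. OX3 replicate 4 at 50 µM, lowest of all treated libraries for NFR1 alpha, was the highest of all 12 for NFR5 alpha.

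The log2 fold change of NFR5 alpha with manganese was 0.81 (SE 0.80) in W and 0.19 (SE 0.78) in OX3. Its adjusted p-values in edgeR's test were 0.607 and 0.922, and 0.928 for the interaction. The interaction was -0.62 (log2), and lay between -1.98, without W replicate 2 at 5 µM, and -0.13, without W replicate 1 at 50 µM. Over both materials the log2 fold change was 0.50 (SE 0.56; edgeR adjusted p = 0.603). Without OX3 replicate 4 at 50 µM the value in OX3 turned to -0.32, and without W replicate 2 at 5 µM the value in W was 2.18.

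Between the materials, NFR5 alpha was on average higher in OX3. The means were 5.21 ± 2.61 FPKM (SD, n = 3) in OX3 and 1.95 ± 2.33 FPKM (SD, n = 3) in W at 5 µM. At 50 µM they were 5.19 ± 2.78 FPKM (SD, n = 3) in OX3 and 2.85 ± 2.20 FPKM (SD, n = 3) in W. From highest to lowest mean, the groups ran OX3 at 5 µM, OX3 at 50 µM, W at 50 µM and W at 5 µM, and each neighbouring pair overlapped. The first 2 of these change places in scaled CPM, with means of 10.05 in OX3 at 5 µM and 11.5 in OX3 at 50 µM. The log2 fold change of OX3 against W was 1.36 (SE 0.80) at 5 µM, where 0.0126% of all genes passed the threshold, and 0.75 (SE 0.79) at 50 µM, where 0.0157% passed. The adjusted p-values of NFR5 alpha in edgeR's test were 0.55 and 0.784. Without W replicate 2 the value at 5 µM was 2.72 (edgeR adjusted p = 0.121), and at 50 µM it was 0.22 without OX3 replicate 4 and 0.24 without W replicate 3. At 5 µM OX3 was above W in each of the 3 pairs of libraries with the same replicate number, and with that number as a block the log2 fold change was 1.71 (edgeR adjusted p = 0.466). Averaged over both doses it was 1.06 (SE 0.56; edgeR adjusted p = 0.481), a comparison in which 0.148% of all genes passed. Without W replicate 2 at 5 µM the average was 1.73 (edgeR adjusted p = 0.103).

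The balance of NFR5 alpha to NFR1, taken as NFR5 alpha FPKM over the summed FPKM of both NFR1 copies, was above 1 in all 6 controls. The ratio was 3.67, 6.12 and 5.36 in W replicates 2, 3 and 4 at 5 µM. In OX3 replicates 2, 3 and 4 at 5 µM it was 25.8, 6.12 and 4.42. The span was wider at 50 µM, with 0.877, 2.74 and 0.054 in W replicates 1, 2 and 3. In OX3 at 50 µM it was 0.846, 1.20 and 29.5 in replicates 2, 3 and 4.

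In W, every treated library thus had a lower ratio than every control, while in OX3 the treated libraries held both lower values and the highest of all. The separation in W was lost with 1 FPKM added to each gene, where the log2 ratio of W replicate 2 at 50 µM, 0.98, lay above those of W replicates 3 and 4 at 5 µM, 0.53 and 0.54. The log2 ratio at 50 minus that at 5 µM was -3.29 in W and -1.51 in OX3. The exact two-sided permutation p-values were 0.1, the smallest that 3 libraries against 3 allow, and 0.5. Without W replicate 3 at 50 µM the difference in W was -1.67. In OX3 it lay between -3.14, without replicate 4 at 50 µM, and -0.58, without replicate 2 at 50 µM. Over both materials the difference was -2.40, with an exact permutation p of 0.07 and 0.3 after adjustment over the 12 tests. Without OX3 replicate 4 at 50 µM it was -3.21, at an unadjusted exact permutation p of 0.005, the smallest that the 200 relabellings can give. Without W replicate 3 at 50 µM it was -1.59 (exact permutation p = 0.12). With 1 FPKM added to each gene the difference was -1.39 in W (exact permutation p = 0.3) and -1.17 over both materials (exact permutation p = 0.15). Between OX3 and W over both doses the log2 difference was 1.73 (exact permutation p = 0.205), and 0.92 when W replicate 3 or OX3 replicate 4 at 50 µM was left out, each on its own.

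**Figure D3:**
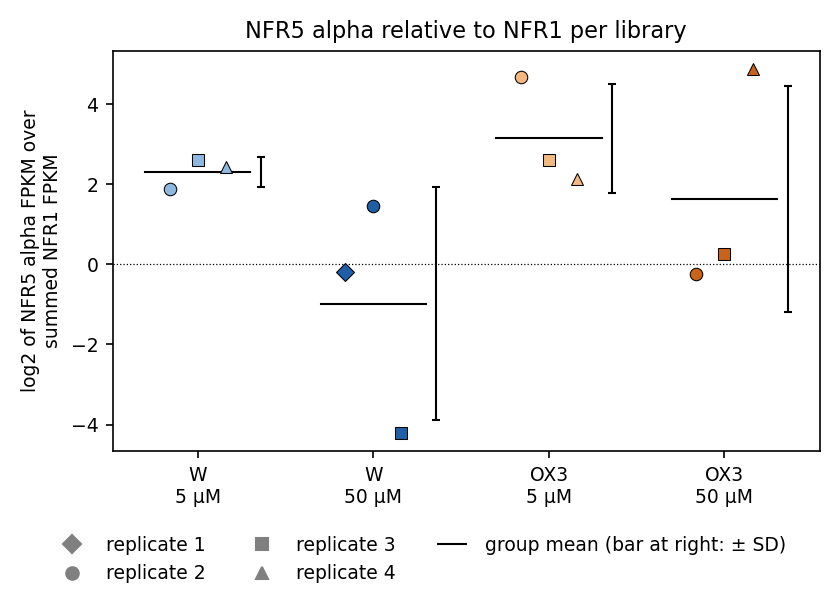
Log2 ratio of NFR5 alpha FPKM to the summed FPKM of both NFR1 copies (y axis) in each library, by material and MnSO4 dose (x axis), with group means and ± SD (n = 3). The dotted line marks equal levels; the 6 libraries at 5 µM lie between 1.88 and 4.69, and those at 50 µM between -4.21 and 4.88.

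NARK, the autoregulation receptor, was lower on average at 50 µM than at 5 µM in both materials, in neither past the threshold. In W it stood at 19.6, 10.8 and 9.32 FPKM in replicates 2, 3 and 4 at 5 µM. The W libraries at 50 µM gave 10.01, 6.59 and 5.33 FPKM in replicates 1, 2 and 3. The highest treated library lay within the range of the controls.

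The log2 fold change of NARK with manganese in W was -0.69 (SE 0.32; edgeR unadjusted p = 0.0494, adjusted p = 0.267). Without W replicate 2 at 5 µM it was -0.51. In OX3 NARK stood at 28.3, 13.1 and 10.2 FPKM in replicates 2, 3 and 4 at 5 µM. The same replicates at 50 µM gave 10.3, 13.7 and 11.4 FPKM. Apart from OX3 replicate 2 at 5 µM, all OX3 libraries lay between 10.2 and 13.7 FPKM, and the log2 fold change of -0.33 (SE 0.31) turned to 0.097 without that library. Over both materials the log2 fold change was -0.51 (SE 0.22; edgeR adjusted p = 0.181). Without OX3 replicate 2 at 5 µM it was -0.30. The interaction was 0.36 (SE 0.45; edgeR adjusted p = 0.882), and lay between 0.14, without OX3 replicate 4 at 5 µM, and 0.80, without OX3 replicate 2 at 5 µM.

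At 50 µM NARK was higher in each OX3 library than in each W library, with means of 11.8 ± 1.75 FPKM (SD, n = 3) and 7.31 ± 2.42 FPKM (SD, n = 3). The same held in scaled CPM, with 37.6 in the lowest OX3 library and 35.0 in the highest W library. On that scale 9.47% of all tested genes were higher in OX3 without overlap at that dose. The log2 fold change was 0.56 (SE 0.32; edgeR adjusted p = 0.621). At 5 µM the means were 17.2 ± 9.68 FPKM (SD, n = 3) in OX3 and 13.2 ± 5.54 FPKM (SD, n = 3) in W, the ranges overlapped and the log2 fold change was 0.20 (SE 0.31; edgeR adjusted p = 0.818). That value turned to -0.25 without OX3 replicate 2 at 5 µM. In the order of mean levels, OX3 at 5 µM, W at 5 µM, OX3 at 50 µM and W at 50 µM, only the last pair was separated.

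The Nod factor receptors varied more between libraries of one group than NARK did. The SD of log2 CPM within groups was 1.49 for NFR1 alpha, larger than that of 98.3% of tested genes, and 1.21 for NFR5 alpha, larger than that of 95.5%. For NARK it was 0.41, larger than that of 43.8%, where the median of all tested genes was 0.45. These shares are over genes of all levels. The lowest library held 4 counts of NFR1 alpha and 15 of NFR5 alpha, against 298 of NARK. How much of the spread was counting error was not tested. Over the 12 libraries the highest FPKM was 78.8 times the lowest for NFR1 alpha, 20.5 times for NFR5 alpha and 5.3 times for NARK. W replicate 2 was the highest of the W controls for each of the 3 genes. W replicate 3 at 50 µM was the highest of its group for NFR1 alpha and the lowest for NFR5 alpha and NARK.

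**Figure D4:**
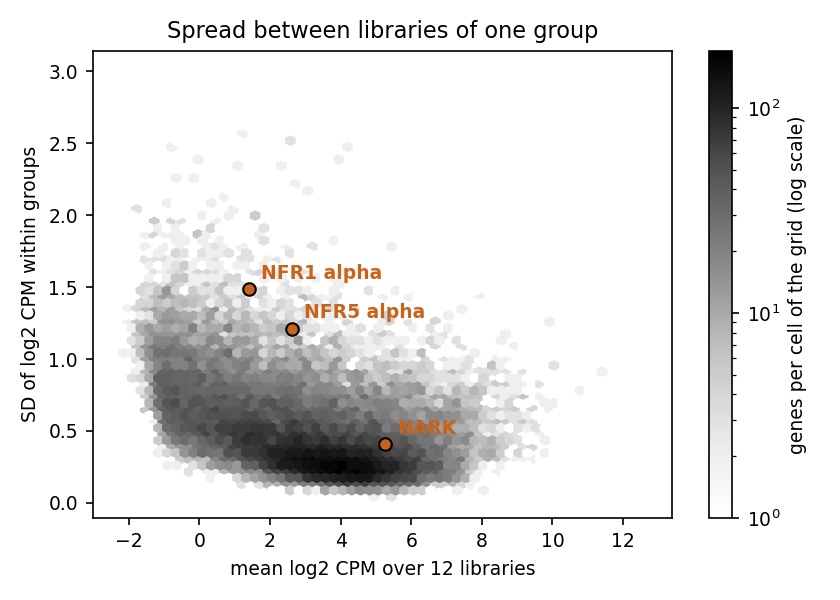
SD of log2 CPM within groups (y axis) against mean log2 CPM over 12 libraries (x axis) for the 31841 tested genes, shaded by the number of genes on a log scale, with the 3 tested receptor genes as orange points. NFR1 alpha at an SD of 1.49 and NFR5 alpha at 1.21 lie near the upper edge, and NARK at 0.41 lies in the body of genes.

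The genes whose log2 CPM over the 12 libraries was most like that of each receptor were found by Pearson's r, as a description that reflects both the groups and whatever else the libraries share. Closest to NFR1 alpha were Glyma.07G151800 (r = 0.947), Glyma.18G209600 (r = 0.909) and Glyma.01G096200 (r = 0.902). The last was scarce, with a mean of 1.05 CPM and a highest library of 4.99 CPM, and like NFR1 alpha it was highest in W replicates 1 and 3 and OX3 replicates 2 and 3 at 50 µM. Closest to NFR5 alpha were Glyma.18G259500 (r = 0.960), Glyma.04G165000 (r = 0.937) and Glyma.06G074300 (r = 0.935). Like NFR5 alpha, all of these were lowest in W replicates 3 and 4 at 5 µM and W replicate 3 at 50 µM. Closest to NARK were Glyma.18G216400 (r = 0.959), Glyma.12G028800 (r = 0.956) and Glyma.10G145200 (r = 0.947), each highest in OX3 replicate 2 at 5 µM. The authors' tables name none of these genes.

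**Figure D5:**
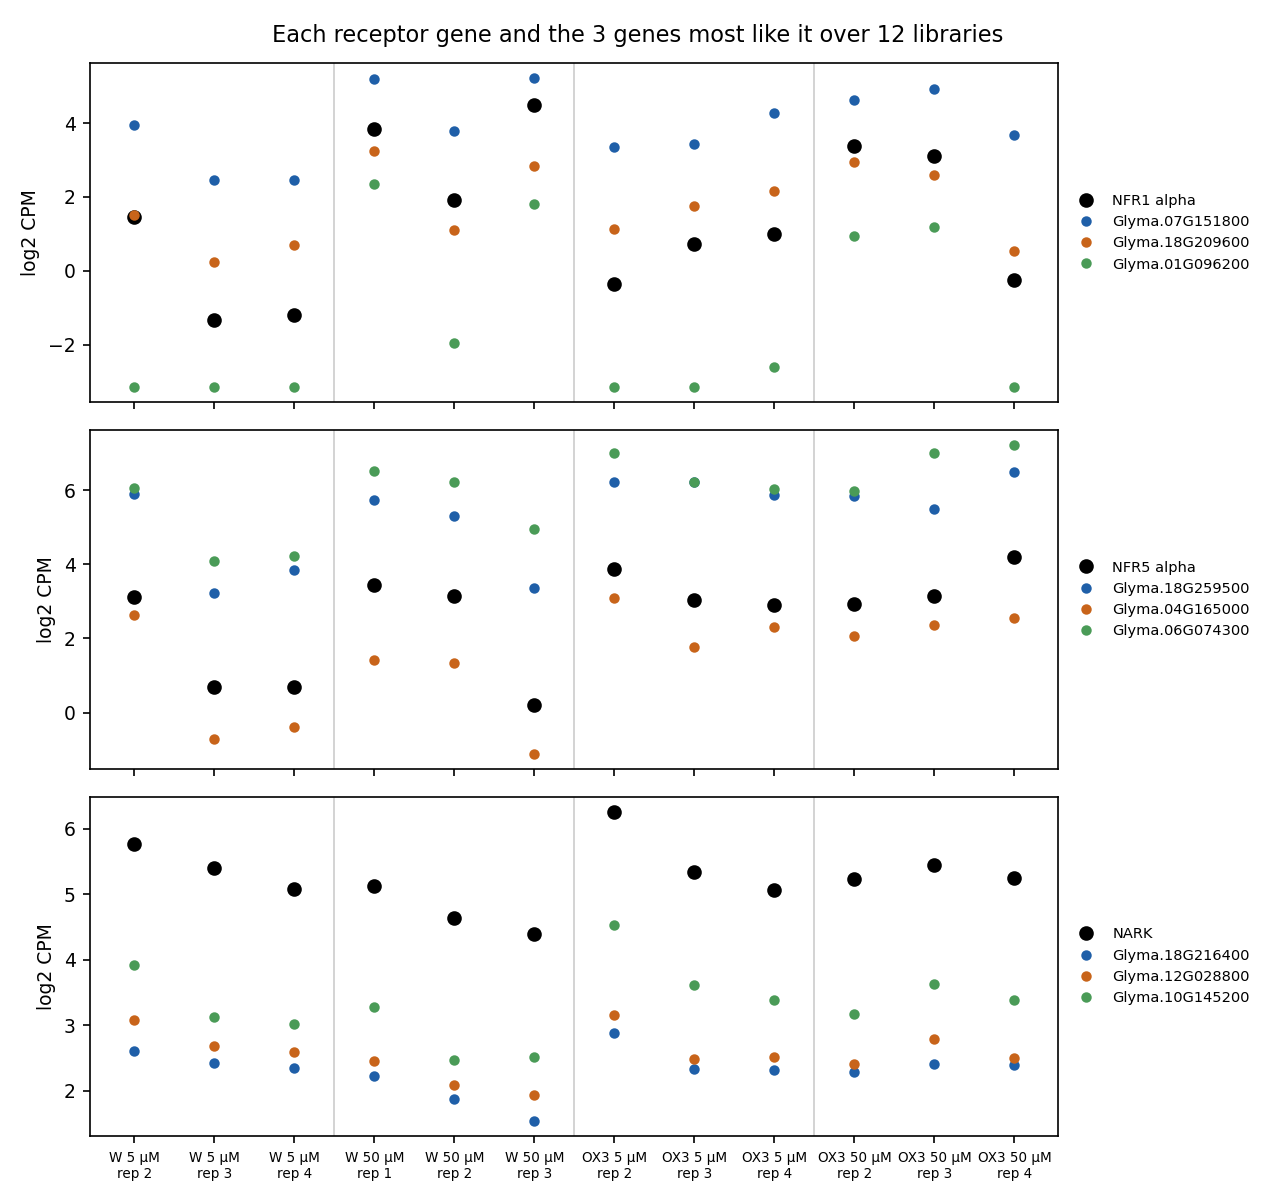
Log2 CPM (y axis, prior count 2) of NFR1 alpha, NFR5 alpha and NARK (black, one panel each) and of the 3 genes most like each of them (coloured) in the 12 libraries (x axis, by material, dose and replicate number). The coloured points follow the black ones from library to library, with r between 0.902 and 0.960.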

How the data were processed

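Raw counts per gene and FPKM values were deposited by the authors, each as a table with 1 column per library. Tools listed, with no roles, in the submitters' processing notes are HTSeq 0.6.0, HISAT2 2.1.0, Bowtie2 2.2.3, TopHat2 and CASAVA; strand and the treatment of reads shared by similar genes are not given in the sources used here. The deposited FPKM equalled the count divided by gene length and column total. None of the identifiers matched the reference gene table (0 of 43517), so planned pathway and marker lists were empty.

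The members and lists were chosen with earlier results of these data known. Named genes are the 4 members and, for each tested one, the 3 genes with the highest Pearson's r of log2 CPM.

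Counts were fitted with edgeR 4.0.16 in R 4.3.3: filterByExpr (31841 genes kept), TMM scaling, 1 quasi-likelihood fit over 12 libraries with the 4 groups as coefficients, two-sided F tests. The SE is the log2 fold change divided by the square root of F. Log2 CPM used a prior count of 2. Ratios between genes were compared by exact permutation of libraries, within material or dose where both were combined. The edgeR fit was run on simulated counts for manganese in W and over both materials. That check covered the size of added fold changes and set no bound on missed or false calls. The permutation test was checked on a small worked example only. Alternatives were DESeq2 1.42.0, RLE size factors, no filter, 2 groups alone, a replicate block, limma-trend (limma 3.58.1) on log2 FPKM with 1 or 0.1 added, and leaving out each library.

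The labels give no meaning to replicate numbers that recur between groups. Deviations from group means correlated across genes by 0.261, 0.445 and 0.272 for same-numbered W and OX3 controls. Differently numbered controls were not compared, so these values do not establish that the numbers pair those controls. In the other combinations of groups the correlations were not positive at every shared number, or fewer than 3 numbers were shared.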

Additional observations from a re-analysis of the deposited data

How the results depend on the processing

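DESeq2 brought NFR1 alpha past the threshold with manganese in W (log2 fold change 3.65, adjusted p 0.0112) and over both materials (2.96, adjusted p 0.000792); the cause was not tested. DESeq2 also called far more genes in all, 1616 against 1 in W, 1095 against 0 in OX3 and 4143 against 740 over both. Log2 FPKM turned the manganese value of NFR5 alpha in OX3 to -0.020 with 1 added and to -0.027 with 0.1 added. The replicate block turned the interaction of NFR5 alpha to 0.22. With it 0 of the 21 tests of the receptor genes passed the threshold, as in the main fit. NFR1 alpha with manganese over both materials was then at 2.46 (edgeR adjusted p = 0.151). Over all genes the block left 0 calls in that comparison, against 740 without it. Replicate numbers were not shown to pair libraries across doses. Between doses in OX3, deviations from group means correlated by -0.186, -0.021 and -0.0755 for replicates 2, 3 and 4. In W they did so by 0.0031 and 0.274 for replicates 2 and 3. W replicate 1 at 50 µM was the only library with its number. The fall in calls with the block therefore cannot show whether the calls without it hold.

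Without any one library, the manganese log2 fold change of NFR1 alpha over both materials lay between 2.61 and 3.83, with adjusted p-values in edgeR's test between 0.0263 and 0.13, and passed the threshold only without OX3 replicate 4 at 50 µM. In the same fits OX3 against W for NFR1 alpha lay between -0.66 and 0.51 over both doses and between -0.17 and 2.11 at 5 µM. For NARK the range was -0.55 to 0.097 with manganese in OX3 and -0.25 to 0.42 for OX3 against W at 5 µM. For NFR5 alpha with manganese in OX3 it was -0.32 to 0.56. The NFR5 to NFR1 log2 difference with manganese over both materials lay between -3.21 and -1.59. The next values leave out both W replicate 2 at 5 µM and OX3 replicate 4 at 50 µM. NFR1 alpha was then at 4.10 with manganese over both materials and at 0.78 for OX3 against W over both doses. NFR5 alpha was at -0.32 with manganese in OX3.

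The mean share of NFR1 alpha in the counts of both copies ran from 99.2% to 100% in W at 5 µM, from 99.7% to 100% in W at 50 µM and from 98.7% to 100% in OX3 at 5 µM when any one library was left out. With 1 FPKM added to each copy, which is more than most of these levels, the shares were 57.9%, 81.6%, 60.8% and 73.4% in W at 5 and 50 µM and in OX3 at 5 and 50 µM. The 3 libraries per group and the low counts of NFR1 alpha in 2 W controls limit the precision.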
